A study of Mus musculus with 6 samples.

Results

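The genes described here encode the subunits of RNA polymerases I, II and III, the TATA-binding protein associated factors (TAFs), the Mediator complex and the general transcription factors, measured in mouse esophageal and stomach organoids. They were chosen by name, as every gene on the arrays called Polr1, Polr2 or Polr3 with a letter, Med or Taf with a number, or Gtf2 or Gtf3. This gave 105 genes on 157 probes out of 34298 gene names, and the probe brightest on average across the 6 arrays stood for each gene. Among them were 5 subunits named for polymerase I, 13 for polymerase II and 10 for polymerase III, 23 TAFs, 30 Mediator subunits, 23 general factors and *Med9os*, a non-coding RNA from the strand opposite *Med9*.

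Organoids were grown from the squamous esophagus and the columnar stomach of mice that the labels number 1, 2 and 4 in both tissues, and 1 single-color array was hybridized for each tissue and mouse number. All 6 cultures were labelled as controls at passage 0 and were harvested on day 8, except for the stomach culture of mouse 4, which was harvested on day 7. The wild-type mice of the study were C57BL/6 females, and its tissue came from adult and from younger mice, with the age behind these arrays not given in the sources used here. Esophageal cells came from dissociated esophagus and grew in medium with forskolin, and stomach glands came from the corpus and grew in medium with WNT3A and R-spondin1 conditioned media and gastrin. Both media held B27, N2, EGF, noggin, FGF-10, N-acetyl-cysteine, nicotinamide and inhibitors of the TGF-β receptor and ROCK kinases, so tissue and part of the medium changed together and cannot be told apart. Of 7 squamous marker genes listed to check the tissue, 6 were higher in the esophagus, with *Krt5* at 17.07 to 17.08 on the log2 scale there and at 4.85 to 5.39 in the stomach. The brightest probe of the seventh, *Trp63*, was higher in the stomach by 1.22. All 8 columnar markers were higher in the stomach. Of 8 fibroblast and smooth muscle markers, 3 were well above background on no array and none passed the test (0 at an unadjusted p under 0.05). *Tagln* was well above background on all 6 arrays, at 8.76 to 10.76 in the stomach and 8.55 to 10.41 in the esophagus. Of 5 immune markers, 1, *Itgam*, was higher in the stomach, while *Ptprc*, which marks all leukocytes, was well above background on no array. *Cd3e* was well above background on all 6 arrays and overlapped between tissues (limma adjusted p = 0.299). The summed linear signal of the immune list ran from 8368 to 14860 on the stomach arrays and from 1669 to 2583 on the esophagus arrays, most of it from *Itgam*, and its part in the results was not tested. Of 3 endothelial markers none passed (limma; 1 at an unadjusted p under 0.05).

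RNA polymerase I transcribes the large ribosomal RNA precursor, polymerase II transcribes messenger RNA and most small nuclear RNA, and polymerase III transcribes transfer RNA, 5S ribosomal RNA and other short RNAs. Each enzyme has its own large catalytic subunits, while some small subunits are shared. General factors and TAFs place the enzymes at promoters, and Mediator links polymerase II to sequence-specific regulators through its head, middle and tail modules and a detachable kinase module.

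Genes of this machinery leaned to the esophagus. At an adjusted p under 0.05 (limma, Benjamini-Hochberg over all 55681 probes), 19 of the 105 genes were higher in esophageal organoids, or 18.1%, against a background of 7.15% of all gene names. One gene, *Med12*, was higher in stomach organoids, or 0.952%, against a background of 7.7%. Among the 15649 gene names well above background on all 6 arrays, which include 100 of the 105, the background was 11.1% for the esophagus and 10.6% for the stomach. In 47 of the 105 genes all 3 esophagus arrays lay above all 3 stomach arrays, where the background was 16.9% of all gene names and 23.7% of those well above background on all 6 arrays, and the reverse held in 4, where it was 14.7%. The difference, given throughout as esophagus minus stomach in log2 units, was above 0 in 86 genes, with a median of 0.42 over the 105 genes against 0.03 over all gene names and 0.09 over those well above background on all 6 arrays. In these bulk samples, a change in the share of a cell type and a change of RNA per cell cannot be told apart. The counts of called genes moved with single arrays. Leaving out stomach replicate 1 or stomach replicate 2 gave 5 genes higher in the esophagus each, leaving out esophagus replicate 2 gave 9, esophagus replicate 4 gave 12, esophagus replicate 1 gave 16 and stomach replicate 4 gave 25. Stomach replicate 4 was the culture harvested on day 7, so this array and its harvest day cannot be told apart. With background-subtracted signal scaled to the 75th percentile, 7 of the 105 genes, or 6.67%, were higher in the esophagus. This was near the 5.75% of all gene names under that setting. The setting changed background treatment and scaling together, and is called 75th percentile scaling below. The 7 were *Polr3g*, *Taf13*, *Med31*, *Med21*, *Med12l*, *Gtf2e1* and *Gtf2ird1*, and each other gene described below as higher in either tissue among the 105 lost its call there. Trend and robust variances ended 8 calls, among them those of *Polr1b*, *Taf1d*, *Med6*, *Med10*, *Med13*, *Med22* and *Gtf2e2* (adjusted p 0.0524 to 0.18). With arrays left out, the share of the 105 genes stood at 4.76% against 3.93% of all gene names without stomach replicate 1, and at 4.76% against 3.94% without stomach replicate 2. It was 8.57% against 5.27% without esophagus replicate 2, 11.4% against 6.74% without esophagus replicate 4, 15.2% against 6.73% without esophagus replicate 1 and 23.8% against 7.61% without stomach replicate 4. The gene higher in the stomach was lost without stomach replicate 1, stomach replicate 2 or esophagus replicate 2, with 4, 2 and 5 genes then at an unadjusted p under 0.05, and without stomach replicate 4 there were 4 such calls.

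**Figure D1:**
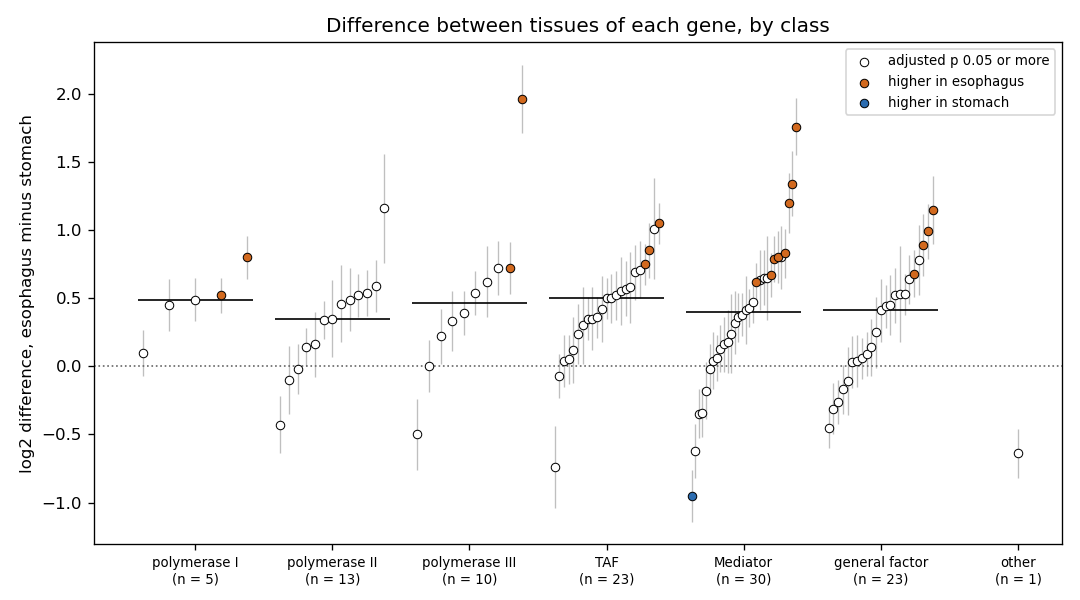
Log2 difference (esophagus minus stomach) of each of the 105 genes by class, with its standard error as a bar and the class median as a line. Orange points passed an adjusted p of 0.05 as higher in the esophagus, the blue point (*Med12*) as higher in the stomach, and the medians of the 6 classes with more than 1 gene lie between 0.35 (polymerase II) and 0.50 (TAFs).

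By class, the share higher in the esophagus was 40% of polymerase I subunits, 20% of polymerase III, 26.7% of Mediator, 17.4% of general factors and 13% of TAFs, the last near the 11.1% of gene names well above background on all 6 arrays, and no polymerase II subunit passed. With the subunits that the enzymes share counted in each, the share was 20% of 10 for polymerase I and 11.8% of 17 for polymerase III. These class counts are small and moved with single arrays. Without stomach replicate 1 or without stomach replicate 2, the number higher in the esophagus was 0 for polymerase I (2 with all arrays), 1 for polymerase III (2), 1 for TAFs (3), 3 for Mediator (8) and 0 for general factors (4). Without stomach replicate 4 it was 1, 4, 4, 9 and 6, and with 75th percentile scaling 0, 1, 1, 3 and 2. Polymerase I, II and III subunits had median differences of 0.49, 0.35 and 0.47. No difference between the 3 medians was tested. Within mouse 1, mouse 2 and mouse 4, the median was 0.48, 0.57 and 0.55 for polymerase I, 0.13, 0.24 and 0.72 for polymerase II, and 0.47, 0.48 and 0.35 for polymerase III. The corresponding medians over all gene names were 0.02, 0.01 and 0.05. Each class median was thus above that of all gene names in each of the 3 mice, and polymerase II varied most between mice. With 75th percentile scaling of background-subtracted signal, the median over all gene names itself shifted to 0.19. Relative to it the 3 classes stood at 0.40, 0.46 and 0.37, against 0.46, 0.32 and 0.43 in the deposited values. The order of the classes thus changed, with background treatment and scaling changed together.

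**Figure D2:**
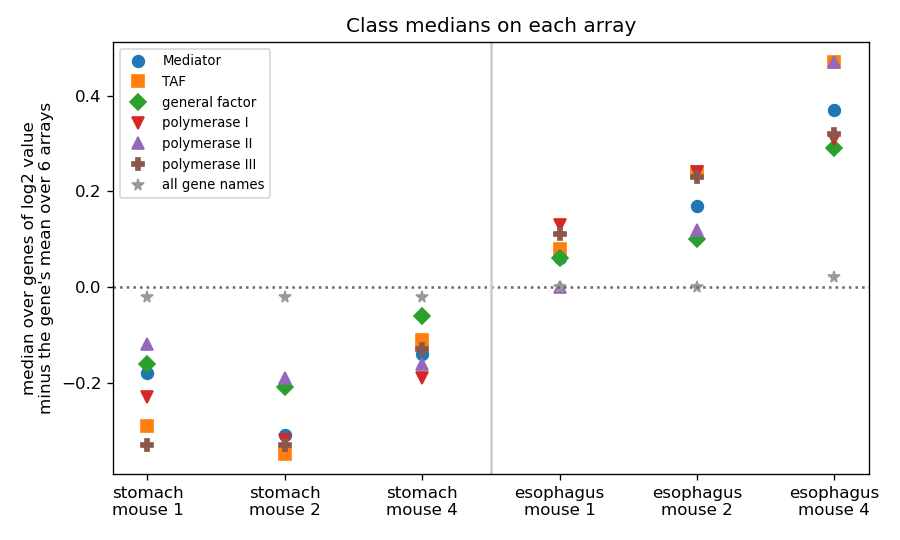
Median over the genes of each class of the log2 value minus that gene's mean over the 6 arrays, for each array. The medians of the 6 classes drawn were below 0 on the 3 stomach arrays and above 0 on the 3 esophagus arrays, except that of polymerase II in esophagus mouse 1, which was at 0.00. Polymerase II stood at 0.47 in esophagus mouse 4.

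The esophagus array of mouse 4 carried the highest value of the 6 arrays for 63 of the 105 genes, and the stomach array of mouse 2 the lowest for 48. The array of esophagus mouse 4 was the only one on its slide. Without it, on the slide that holds arrays of both tissues, the median over the 105 genes was 0.30 against 0.02 over all gene names, and the medians of polymerase I, II and III were 0.47, 0.26 and 0.45. Genes of dividing cells (12 genes, such as *Mki67* and the replication helicase subunits) had a median difference of 0.36, with 0 of 12 passing in limma and 3 at an unadjusted p under 0.05. Their summed linear signal ran from 77670 to 94620 on the stomach arrays and from 71770 to 128700 on the esophagus arrays, and their part in the results was not tested.

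Of the 5 polymerase I subunits, 2 rose in the esophagus and the other 3 had differences of 0.10 to 0.49. *Polr1a*, the largest subunit, which holds much of the active site, had log2 values of 11.39, 11.07 and 11.28 in the stomach and 11.45, 11.63 and 12.00 in the esophagus of mice 1, 2 and 4. The tissues did not overlap, but the difference of 0.45 (standard error 0.19, adjusted p = 0.195, limma) did not pass. *Polr1b*, the second-largest subunit, stood at 9.33, 9.26 and 9.30 in the stomach and at 9.81, 9.81 and 9.85 in the esophagus. The spread within each tissue was small, 0.04 and 0.02 (SD, n = 3), and the difference was 0.52 (standard error 0.13, limma adjusted p = 0.039). It was lost in each of the 6 fits with 1 array left out (adjusted p 0.0703 to 0.132) and with the mouse as a block (adjusted p = 0.0981, limma). The mean of all its probes gave 0.31 (adjusted p = 0.189). *Polr1e*, which forms a heterodimer near the enzyme's lobe that takes part in initiation, had 9.38, 9.23 and 9.48 in the stomach against 10.15, 10.00 and 10.33 in the esophagus. All esophagus values were higher, by 0.80 on average (standard error 0.16, limma adjusted p = 0.0139), and its other probe gave 1.03 (limma adjusted p = 0.0119). The call was lost without stomach replicate 1 (adjusted p = 0.0616) or stomach replicate 2 (adjusted p = 0.0665).

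Further polymerase I genes appear on the arrays under older names that the naming rule did not match. *Cd3eap*, the partner of *Polr1e* in that heterodimer, was higher in the esophagus by 1.13 (standard error 0.19, limma adjusted p = 0.00692), with 9.06, 8.98 and 9.30 in the stomach and 10.01, 10.15 and 10.57 in the esophagus. *Twistnb*, a stalk subunit, was higher by 0.92 (standard error 0.15, limma adjusted p = 0.00657). *Znrd1*, a small subunit that helps cleave RNA, differed by 0.19 (limma adjusted p = 0.663). With these, 4 of 8 polymerase I subunits were higher in the esophagus and all 8 differences were above 0. The background was 7.15% of all gene names and 11.1% of those well above background on all 6 arrays. Of all gene names, 18375 of 34298 had differences above 0. The calls inside the naming rule fell to 0 without stomach replicate 1 or without stomach replicate 2. The genes under older names were not refitted with arrays left out. *Rrn3*, which brings polymerase I to its promoter, was also higher in the esophagus, by 0.67 (limma adjusted p = 0.0433), while *Ubtf*, the ribosomal DNA binding factor, differed by 0.44 (limma adjusted p = 0.158).

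The other pair, *Polr1c* and *Polr1d*, encode an assembly platform shared by polymerases I and III. *Polr1c* overlapped between tissues (difference 0.10, limma adjusted p = 0.798). *Polr1d* has probes for different transcript variants, shown here by the first 30 of their 60 bases because 1 of them passed the test and the other did not, 5′ to 3′ and without capitals.
*Polr1d* variant 2 (NM_181730, chr5:147922840-147922899, mm9, plus strand): gagattgtttaaaaactcctagttttttga
*Polr1d* variant 1 (NM_009087, chr5:147890429-147890488, mm9, plus strand): ggccagcataaaggactataaagctaaaaa
The brighter probe, for variant 2, had 13.01, 13.09 and 13.41 in the stomach and 13.54, 13.73 and 13.70 in the esophagus, a difference of 0.49 (standard error 0.16) that did not pass (limma adjusted p = 0.104). The probe for variant 1 had 11.31, 11.17 and 11.48 in the stomach and 13.34, 12.81 and 12.82 in the esophagus. Its difference of 1.67 (standard error 0.19, limma adjusted p = 0.00097) placed all esophagus values more than 1 unit above all stomach values. With the mean of both probes, *Polr1d* differed by 1.08 and passed (limma adjusted p = 0.00252). The difference between the probes was not tested, and the level of one probe cannot be set against that of another. Whether these bases lie in coding or untranslated exons was not looked up, since no mm9 annotation was used here.

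**Figure D3:**
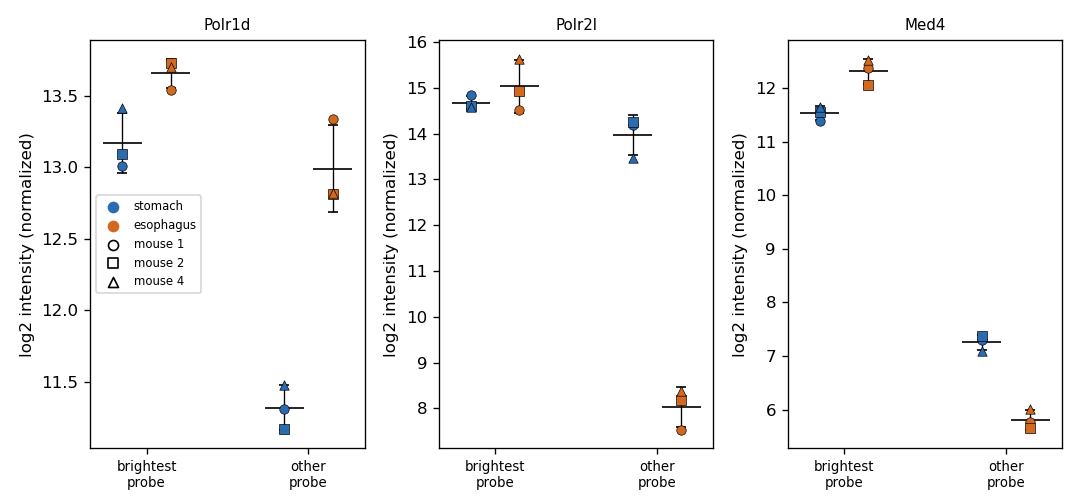
Normalized log2 intensity of both probes of *Polr1d*, *Polr2l* and *Med4* on each array, with tissue means (lines) and SD (bars, n = 3); markers show the mouse. The other probe of *Polr1d* lies higher in the esophagus, that of *Polr2l* lies near 14 in the stomach and near 8 in the esophagus, and the probes of *Med4* point in opposite directions.

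Of the 13 polymerase II subunits, 0 passed the test in limma, with 5 at an unadjusted p under 0.05, all with higher esophagus values. *Polr2a*, the largest subunit, whose C-terminal repeats are phosphorylated during transcription, had 8.21, 8.67 and 9.10 in the stomach and 8.42, 8.83 and 8.43 in the esophagus. The tissues overlapped fully and the difference was -0.10 (standard error 0.25, limma adjusted p = 0.873). *Polr2b*, the second-largest subunit, had 11.63, 11.47 and 11.78 in the stomach and 12.12, 12.01 and 12.31 in the esophagus. Its tissues did not overlap, and the difference of 0.52 (standard error 0.16, limma adjusted p = 0.0784) did not pass, though it did when background was corrected anew from the scanner intensities (limma's normexp, offset 50; difference 0.54, adjusted p = 0.0384). *Polr2d*, a stalk subunit, had the largest difference in the class, 1.16 (standard error 0.40, limma adjusted p = 0.119). Its values spread widely in both tissues, from 9.06 to 10.27 in the stomach and from 10.08 to 11.41 in the esophagus, and it passed with the mouse as a block (adjusted p = 0.0335), without esophagus replicate 1 (adjusted p = 0.0482) and without stomach replicate 4 (adjusted p = 0.045). Its stalk partner *Polr2g* differed by 0.59 (limma adjusted p = 0.0986) without overlap.

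None of the remaining subunits specific to polymerase II passed (limma; 1, *Polr2i*, at an unadjusted p under 0.05). *Polr2c* and *Polr2j*, which pair during assembly, differed by -0.02 and 0.49. *Polr2i*, which aids proofreading, differed by 0.34 on its brightest probe and by 0.33 to 0.47 on its other 3 probes, with no overlap of tissues on any of the 4. *Polr2m*, a substoichiometric regulator, differed by 0.14. The adjusted p of these genes ran from 0.203 to 0.969 (limma). The 5 subunits shared by all 3 polymerases had differences of 0.35 (*Polr2l*), 0.46 (*Polr2f*), 0.54 (*Polr2k*), 0.16 (*Polr2h*) and -0.43 (*Polr2e*), and in *Polr2k* alone the tissues did not overlap (limma adjusted p = 0.0838). None of the 5 passed, with 1 at an unadjusted p under 0.05.

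**Figure D4:**
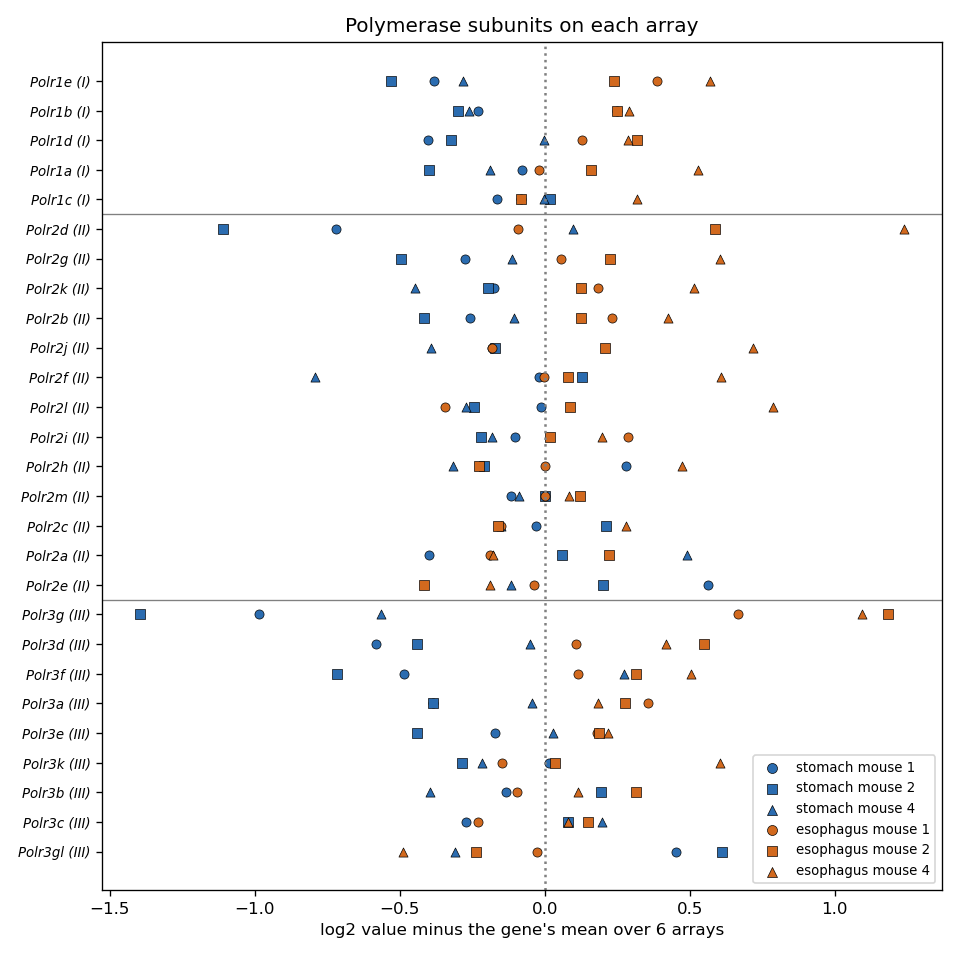
Log2 value of 27 of the 28 polymerase subunits on each array minus that gene's mean over the 6 arrays, ordered within the classes (I, II, III) by the difference between tissues. *Polr3g* shows the widest separation of esophagus (orange) from stomach (blue), and the array of esophagus mouse 4 (orange triangles) is highest for many polymerase II subunits.

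*Polr2l*, a small zinc-binding subunit, gave the largest disagreement between probes. The first 30 bases of both 60-base probes are shown to identify them, both designed against NM_025593.
*Polr2l* brightest probe (chr7:148659029-148659088, mm9, minus strand): tgtggctaagtcctgttaccctggaaggaa
*Polr2l* other probe (chr7:148657986-148658045, mm9, minus strand): tgaaactcacaacagtcagcctgcctttac
The brightest probe had 14.84, 14.61 and 14.58 in the stomach and 14.51, 14.94 and 15.64 in the esophagus, which overlapped (difference 0.35, limma adjusted p = 0.525). The other probe had 14.18, 14.26 and 13.46 in the stomach and 7.53, 8.18 and 8.37 in the esophagus, a difference of -5.94 (standard error 0.29, limma adjusted p = 8.49e-06). With the mean of both probes in place of the brightest, the difference of *Polr2l* was -2.79, higher in the stomach (limma adjusted p = 0.000626). The transcript that the other probe reads was not identified here. Over the genes with more than 1 probe, 34 of 43 had differences of 1 sign on all probes, and in 1 gene, *Med4*, probes were called in opposite directions.

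Of the 10 polymerase III subunits, 2 rose in the esophagus, a count of 1 with the mouse as a block and with any of stomach replicate 1, stomach replicate 2, esophagus replicate 2 or esophagus replicate 4 left out, and of 4 without stomach replicate 4, and none was higher in the stomach (0 at an unadjusted p under 0.05 in that direction). *Polr3g* had the largest difference among the 100 genes well above background on all 6 arrays. It and *Polr3gl* encode alternative forms of 1 subunit, which sits in a subcomplex of the enzyme that contacts its initiation factor. *Polr3g* had log2 values of 10.11, 9.70 and 10.53 in the stomach and 11.76, 12.28 and 12.19 in the esophagus. All esophagus values lay more than 1 unit above all stomach values, and the difference was 1.96 (standard error 0.25, 3.9-fold, limma adjusted p = 0.00151). It passed in each of the 6 fits with 1 array left out, with adjusted p of 0.00122 to 0.012. *Polr3gl* had 12.35, 12.51 and 11.59 in the stomach and 11.87, 11.66 and 11.41 in the esophagus. The tissues overlapped through the stomach array of mouse 4, and the difference was -0.50 (standard error 0.26, limma adjusted p = 0.3), or -0.78 without that array (adjusted p = 0.0418). Between tissues, *Polr3g* minus *Polr3gl* changed by 2.47. An exact test over the 20 splits of the arrays gave p = 0.1, the smallest it can give, so it cannot decide this difference.

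The 250 bases before the annotated start of each paralog are printed because the genes encode alternatives for 1 subunit, of which *Polr3g* passed the test and *Polr3gl* did not. They come from RefSeq on GRCm38.p6, 5′ to 3′ on the gene's strand, with matches to 7 searched motifs in capitals.
*Polr3g* (chr13:81711014-81711263, minus strand): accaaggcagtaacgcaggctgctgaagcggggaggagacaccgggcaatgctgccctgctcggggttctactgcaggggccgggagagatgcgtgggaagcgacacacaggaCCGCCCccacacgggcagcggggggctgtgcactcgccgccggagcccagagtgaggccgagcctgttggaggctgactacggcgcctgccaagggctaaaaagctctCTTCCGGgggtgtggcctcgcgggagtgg
*Polr3gl* (chr3:96594182-96594431, minus strand): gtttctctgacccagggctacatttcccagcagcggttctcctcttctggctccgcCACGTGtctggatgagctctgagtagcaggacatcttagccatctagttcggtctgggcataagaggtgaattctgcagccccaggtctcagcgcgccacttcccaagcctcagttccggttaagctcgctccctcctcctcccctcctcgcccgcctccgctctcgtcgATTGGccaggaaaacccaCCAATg
The *Polr3g* window held 1 Sp1 core (GGGCGG) and 1 ETS core (CCGGAAG), both on the opposite strand, and no E-box or CCAAT box. The *Polr3gl* window held 1 E-box (CACGTG) and 2 CCAAT boxes (CCAAT), and no Sp1 or ETS core. Neither window held TATAAA, the NRF1 core GCATGCG or the YY1 core AAGATGG. Motifs were searched on both strands, and no string contains another.

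Promoter windows of 250 bases before to 50 after the start were found for 91 of the 105 genes, and a gene was counted where any of its windows held the string. The ETS core occurred in 36.3% of the 91 genes against 9.93% of all 27025 genes with a window and 12.9% of the 17491 protein-coding ones. The E-box occurred in 20.9% against 8.09% and 8.91%, the Sp1 core in 68.1% against 38.2% and 49.2%, and the NRF1 core in 11% against 4.01% and 4.95%. The YY1 core occurred in 13.2% against 7.28% and 7.18%. TATAAA was about as common as elsewhere, 14.3% against 15.7% and 14.8%, and CCAAT was in 34.1% against 41.1% and 42.3%. Of the 17 genes higher in the esophagus that had a window, 7 held the ETS core, 14 the Sp1 core and 2 the E-box. These are matches of letters and were not tested.

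The large subunits of polymerase III did not pass the test. *Polr3a*, the largest, had 8.44, 8.44 and 8.78 in the stomach and 9.18, 9.10 and 9.01 in the esophagus, without overlap (difference 0.54, standard error 0.16, limma adjusted p = 0.0676). *Polr3b*, the second-largest, had 9.58, 9.91 and 9.32 in the stomach and 9.62, 10.03 and 9.83 in the esophagus, which overlapped (difference 0.22, limma adjusted p = 0.582). *Crcp*, a subunit outside the naming rule, differed by 0.70 (limma adjusted p = 0.0848).

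*Polr3d* and *Polr3e* form a heterodimer used in initiation and termination. They differed by 0.72 (limma adjusted p = 0.0552) and 0.39 (limma adjusted p = 0.196), and in both the tissues did not overlap. *Polr3c* and *Polr3f*, which join *Polr3g* or *Polr3gl* in the initiation subcomplex, differed by 0.00 and 0.62, with adjusted p of 0.996 and 0.206 (limma). *Polr3k*, which takes part in RNA cleavage, differed by 0.33 (limma adjusted p = 0.44). Of these, *Polr3d* passed without stomach replicate 4 (adjusted p = 0.027) or esophagus replicate 1 (adjusted p = 0.0441). It also passed in the fit to the mean of each gene's probes (limma adjusted p = 0.0486). *Polr3f* passed without stomach replicate 4 (adjusted p = 0.0216). *Polr3a* passed without stomach replicate 4 (adjusted p = 0.037) and at a normexp offset of 50 (limma adjusted p = 0.036).

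Of the 23 TAFs, 3 rose in the esophagus, or 13%, and none was higher in the stomach (limma; 1 at an unadjusted p under 0.05). Differences were above 0 in 21, with a median of 0.50. *Taf13*, a histone-fold subunit of TFIID that pairs with *Taf11*, had 9.72, 9.88 and 9.78 in the stomach and 10.69, 10.98 and 10.86 in the esophagus. The difference of 1.05 (standard error 0.15, limma adjusted p = 0.00272) was larger than the spread within either tissue, 0.08 and 0.14 (SD, n = 3), and passed in all 6 fits with 1 array left out (adjusted p 0.00471 to 0.0206). *Taf12*, which pairs with *Taf4* in TFIID and also belongs to the SAGA coactivator, had 10.86, 11.00 and 10.91 in the stomach and 11.49, 11.67 and 12.16 in the esophagus. Its difference was 0.85 (standard error 0.20, limma adjusted p = 0.0276), and it passed in 2 of the 6 fits, without esophagus replicate 1 and without esophagus replicate 4, with adjusted p up to 0.114 in the others. A dim second probe of *Taf12*, well above background on no array, gave -0.20 (limma adjusted p = 0.553), and with the mean of both probes the call was lost (difference 0.32, adjusted p = 0.212).

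The 4 TAFs of SL1, the polymerase I promoter factor, were each higher on all 3 esophagus arrays than on any stomach array. This held for 16.9% of all gene names and 23.7% of those well above background on all 6 arrays. *Taf1d* passed, with 9.45, 9.54 and 9.54 in the stomach and 10.21, 10.47 and 10.11 in the esophagus, a difference of 0.75 (standard error 0.15, limma adjusted p = 0.0161). It was lost without stomach replicate 1 (adjusted p = 0.0787), stomach replicate 2 (adjusted p = 0.0616) or esophagus replicate 2 (adjusted p = 0.0554). *Taf1a*, *Taf1b* and *Taf1c* differed by 0.36, 0.50 and 0.71, with adjusted p of 0.205, 0.0777 and 0.0689 (limma), and *Taf1a* was well above background on 2 of 3 stomach arrays. *Tbp*, the protein that SL1, TFIID and the polymerase III factor TFIIIB share, was higher in the esophagus, with 9.41, 8.75 and 9.25 in the stomach and 10.05, 9.88 and 10.24 in the esophagus, a difference of 0.93 (standard error 0.21, limma adjusted p = 0.0247).

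Paralogous TAFs gave mixed values. *Taf4*, a scaffold of TFIID, was level between tissues (difference 0.05, limma adjusted p = 0.915), while its paralog *Taf4b*, known from germ cells, was well above background on no stomach array and on 1 esophagus array. *Taf9* had 12.12, 12.07 and 12.63 in the stomach and 12.95, 12.76 and 13.17 in the esophagus, without overlap (difference 0.69, limma adjusted p = 0.0698), and its other probe gave 0.64. *Taf9b* differed by 1.01 with overlap (standard error 0.37, limma adjusted p = 0.135). *Taf7* differed by 0.52 (limma adjusted p = 0.12). *Taf7l*, its X-linked paralog best known from the testis, had 10.61, 10.64 and 9.52 in the stomach and 9.54, 9.39 and 9.61 in the esophagus, so that 2 stomach arrays stood apart from the other 4. Its difference was -0.74 (limma adjusted p = 0.18) and -1.11 without stomach replicate 4 (adjusted p = 0.00501). Without that array *Taf9* also passed (adjusted p = 0.0232), and *Taf9b* passed without esophagus replicate 1 (adjusted p = 0.0312).

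Of the 30 Mediator subunits, the largest class, 8 were higher in the esophagus, or 26.7%, while 1 was higher in the stomach, or 3.33% (limma). In the middle module, which bridges head and tail, 4 of 9 subunits rose and 8 of 9 differences were above 0, with a median of 0.63. The exception, *Med1*, had -0.34 on its brightest probe and 0.32, 0.37 and 0.57 on its other probes (limma adjusted p 0.175 to 0.316). In the head, which contacts polymerase II, 2 of 7 rose, with a median of 0.65. Beside the 11.1% of gene names well above background, these were 44.4% and 28.6%, but without stomach replicate 1, without stomach replicate 2 or with 75th percentile scaling, 2 middle subunits (*Med31* and *Med21*) and 0 head subunits remained among these calls. Of the 5 tail subunits, which receive activators, 0 passed (limma; 1 at an unadjusted p under 0.05), with differences of -0.62 to 0.13 and a median of 0.04. *Med14*, the scaffold, differed by 0.32, and *Med27* to *Med30* by 0.18 to 0.47, none of them passing (limma; 1 of these 5 at an unadjusted p under 0.05). No difference between modules was tested.

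*Med31* and *Med21*, which both bind *Med7* in the middle module, had the largest differences among subunits well above background on all arrays. *Med31* had 11.51, 11.25 and 11.16 in the stomach and 12.89, 12.13 and 12.91 in the esophagus. The difference was 1.34 (standard error 0.24, 2.53-fold, limma adjusted p = 0.0089), with all esophagus values above all stomach values. *Med21* had 9.91, 9.57 and 10.11 in the stomach and 10.93, 10.84 and 11.43 in the esophagus, a difference of 1.20 (standard error 0.22, limma adjusted p = 0.00959). Both passed in all 6 fits with 1 array left out, with adjusted p up to 0.0472 and 0.0458. A dim second probe of *Med21*, well above background on no array, gave -0.52 (limma adjusted p = 0.132), and with the mean of both probes the call was lost (difference 0.34, adjusted p = 0.272). *Med7* itself had 9.87, 9.77 and 10.44 in the stomach and 10.54, 10.48 and 10.94 in the esophagus (difference 0.63, limma adjusted p = 0.129).

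*Med6*, at the contact of head and middle, had 10.00, 10.02 and 10.29 in the stomach and 10.78, 10.70 and 11.22 in the esophagus. The difference of 0.80 (standard error 0.19, limma adjusted p = 0.0308) was matched by 0.84 on its other probe (limma adjusted p = 0.0111). It was lost without stomach replicate 1 (adjusted p = 0.128), stomach replicate 2 (adjusted p = 0.12) or esophagus replicate 4 (adjusted p = 0.0641). The other 3 subunits that rose, outside the naming rule for single genes and named after their values were seen, were *Med4* (0.79), *Med22* (0.67) and *Med10* (0.62), with adjusted p of 0.0218 to 0.0323 (limma). They passed in 2, 2 and 0 of the 6 fits with 1 array left out, with adjusted p up to 0.102, 0.128 and 0.12, and *Med22* and *Med10* were lost with the mouse as a block (adjusted p 0.0578 and 0.0636). *Med10* gave 0.87 on its other probe (limma adjusted p = 0.0326). The other probe of *Med4*, which spans chr14:73913737-73915110 (mm9, plus strand), had 7.30, 7.37 and 7.09 in the stomach and 5.76, 5.65 and 6.01 in the esophagus. It was higher in the stomach by 1.44 (limma adjusted p = 0.000884), against the direction of the brightest probe, and the mean of both gave -0.33 (adjusted p = 0.199).

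The kinase module held opposite calls. *Med12*, which activates the kinase, had 11.16, 11.25 and 10.70 in the stomach and 10.00, 10.04 and 10.22 in the esophagus. All stomach values lay above all esophagus values, and the difference was -0.95 (standard error 0.19, 1.94-fold, limma adjusted p = 0.0135). It was lost without stomach replicate 1 (adjusted p = 0.0703), stomach replicate 2 (adjusted p = 0.0632) or esophagus replicate 2 (adjusted p = 0.0509), and a dimmer second probe gave -0.07 (limma adjusted p = 0.866). The mean of both probes gave -0.51 (adjusted p = 0.0774), and 75th percentile scaling gave -0.70 (adjusted p = 0.221). Its paralog *Med12l* was well above background on no stomach array, with 5.13, 5.22 and 4.64, and on all 3 esophagus arrays, with 6.83, 6.47 and 6.98. In the deposited values its level was higher in the esophagus, at least 3.33-fold, the mean of 6.76 there being set against a bound of 5.02 for the stomach (limma adjusted p = 0.00125), and it passed in all 6 fits with 1 array left out. The bound holds for that processing, since the fitted difference moved from 1.76 to 1.09 at a normexp offset of 50. It was 4.03 with 75th percentile scaling of background-subtracted signal. A second probe, well above background on no array, gave 0.56 (limma adjusted p = 0.123), and the mean of both gave 1.16 (adjusted p = 0.00335). The bound is the mean over stomach arrays of the larger of the gene's own value and the dimmest value of any probe well above background on that array.

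*Med13*, which tethers the kinase module to the core, had 6.39, 6.26 and 6.54 in the stomach and 7.12, 7.51 and 7.05 in the esophagus. It was higher in the esophagus by 0.83 (standard error 0.18, limma adjusted p = 0.0195), a call lost without stomach replicate 1 (adjusted p = 0.0827), stomach replicate 2 (adjusted p = 0.0878) or esophagus replicate 2 (adjusted p = 0.0579) and with the mouse as a block (adjusted p = 0.0551). Its paralog *Med13l* overlapped between tissues (difference -0.18, limma adjusted p = 0.697). Of the kinases, *Cdk8* was level (difference 0.04, limma adjusted p = 0.92), and its paralog *Cdk19* was higher in the stomach, with 10.91, 10.86 and 10.66 there and 9.70, 9.90 and 10.17 in the esophagus (difference -0.89, standard error 0.17, limma adjusted p = 0.0132). *Ccnc*, the cyclin of the module, differed by 0.39 with overlap (limma adjusted p = 0.588).

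**Figure D5:**
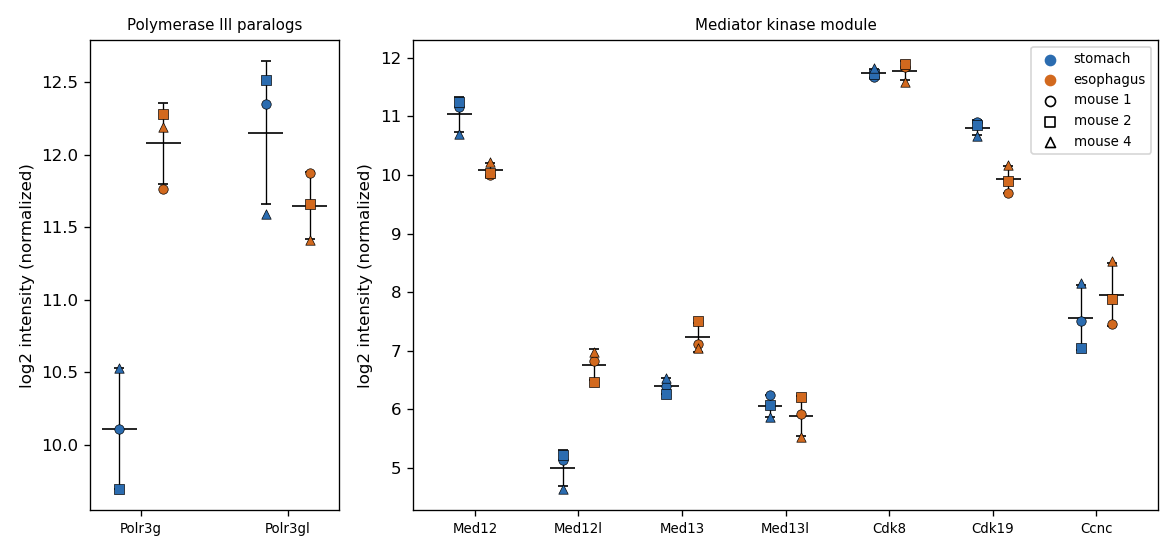
Normalized log2 intensity on each array of *Polr3g* and *Polr3gl* (left) and of the Mediator kinase module (right), with tissue means (lines) and SD (bars, n = 3); intensities of different probes cannot be set against each other. *Polr3g*, *Med12l* and *Med13* are higher in the esophagus, *Med12* and *Cdk19* in the stomach, and *Cdk8* overlaps between tissues.

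Of the 23 general factors, 4 rose in the esophagus and none was higher in the stomach (limma; 1 at an unadjusted p under 0.05), with a median difference of 0.41. *Gtf2e1* and *Gtf2e2*, the subunits of TFIIE, which loads TFIIH, both rose. *Gtf2e1* had 8.69, 8.17 and 8.80 in the stomach and 10.08, 9.34 and 9.70 in the esophagus, a difference of 1.15 (standard error 0.25, limma adjusted p = 0.0209), lost without stomach replicate 1 (adjusted p = 0.0658) or stomach replicate 2 (adjusted p = 0.0797). *Gtf2e2* had 10.90, 10.89 and 11.25 in the stomach and 11.77, 11.54 and 11.75 in the esophagus, a difference of 0.68 (standard error 0.17, limma adjusted p = 0.0357) that passed only without stomach replicate 4 among the 6 fits (adjusted p 0.0209 there and up to 0.146 in the others) and was lost with the mouse as a block (adjusted p = 0.0592). *Gtf2b*, or TFIIB, which bridges TBP and polymerase II, had 10.43, 10.04 and 10.71 in the stomach and 11.08, 11.15 and 11.63 in the esophagus. Its difference of 0.89 (standard error 0.23, limma adjusted p = 0.0426) also passed only without stomach replicate 4 among the 6 fits (adjusted p 0.0277 there and up to 0.147 in the others). At a normexp offset of 50 the difference was 0.89 and the call was lost (limma adjusted p = 0.0642).

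The TFIIF subunits *Gtf2f1* and *Gtf2f2*, which travel with polymerase II, were each higher on all esophagus arrays, by 0.53 and 0.64, and missed the threshold (limma adjusted p = 0.0583 and 0.058). The 5 genes here of the core of TFIIH, a complex that acts in promoter opening and DNA repair, differed by -0.17 to 0.78. Of these, 0 passed (limma; 3 at an unadjusted p under 0.05). None of the 3 TFIIA genes passed (limma; 0 at an unadjusted p under 0.05), with *Gtf2a1* at 0.41 (limma adjusted p = 0.343), *Gtf2a2* at 0.06 and *Gtf2a1l*, a germ cell paralog, well above background on no array. The polymerase III factors TFIIIA (*Gtf3a*, difference -0.26) and TFIIIC (6 genes, -0.45 to 0.45, median 0.12) had 0 of 7 passing (limma; 1 at an unadjusted p under 0.05).

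*Gtf2ird1*, a DNA-binding member of the TFII-I family, had 12.00, 11.79 and 12.23 in the stomach and 13.15, 13.18 and 12.66 in the esophagus. It was higher in the esophagus by 0.99 (standard error 0.20, limma adjusted p = 0.0157), and by 0.65 on its other probe (limma adjusted p = 0.04). The call was lost without stomach replicate 1 (adjusted p = 0.0699), stomach replicate 2 (adjusted p = 0.073) or esophagus replicate 2 (adjusted p = 0.0601). Its relatives *Gtf2i* and *Gtf2ird2* overlapped between tissues, with differences of -0.11 and 0.04 (limma adjusted p = 0.864 and 0.94). *Med9os* had 5.53, 5.87 and 5.38 in the stomach, where 2 of 3 arrays were well above background, and 4.78, 4.95 and 5.13 in the esophagus, where none was (limma adjusted p = 0.0646).

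Of 42 further genes of the transcription machinery listed outside the naming rule, 39 were matched on the arrays. Of these, 6 were higher in the esophagus (*Snapc3*, *Cd3eap*, *Snapc1*, *Tbp*, *Twistnb* and *Rrn3*), while the stomach had 3 (*Tcea3*, *Cdk19* and *Ell*), with a median difference of 0.19. These were 15.4% and 7.69% of the 39. The backgrounds were 7.15% and 7.7% of all gene names. Among gene names well above background on all 6 arrays, which include 36 of the 39, they were 11.1% and 10.6%. The counts are small, and neither share was tested against its background. None of the 39 was refitted with arrays left out or under the other alternatives, so how far these calls hold was not tested. *Snapc3* and *Snapc1*, subunits of the complex that binds promoters of small nuclear RNA genes, were higher by 1.47 (standard error 0.15, limma adjusted p = 0.000425) and 1.12 (standard error 0.26, limma adjusted p = 0.0275), while *Snapc2*, *Snapc4* and *Snapc5* differed by 0.08, -0.17 and 0.30 without passing. Of the elongation factors, *Tcea3* and *Ell* were the genes higher in the stomach. *Tcea3*, a tissue-restricted TFIIS that rescues stalled polymerase II, had 10.58, 10.19 and 9.32 in the stomach and 5.84, 5.53 and 5.30 in the esophagus, a difference of -4.48 (standard error 0.32, limma adjusted p = 6.99e-05), with 2 of 3 esophagus arrays well above background. *Ell* was higher in the stomach by 0.78 (standard error 0.18, limma adjusted p = 0.031). The TFIIIB subunits *Brf1* and *Bdp1* differed by 0.07 and 0.51, with adjusted p of 0.908 and 0.0781 (limma).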

How the data were processed

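Labelled RNA of 6 organoid cultures was hybridized to single-color Agilent mouse arrays. The authors read them with Agilent Feature Extraction (version 11.5.1.1, from the file headers). The deposited scanner files hold raw spot intensity with flags. For the deposited log2 table the authors corrected background and applied quantile normalization, by a background method not given in the sources used here. It was joined to spots by feature number, which each array's own intensities bore out (Spearman's rho 0.991 to 0.995, against at most 0.929 for other arrays). Log2 values were averaged over the spots of a probe (outlier-marked spots are empty) and fitted with limma 3.58.1 in R 4.3.3, over all 55681 non-control probes with Benjamini-Hochberg adjustment and no block. The adjusted p threshold was 0.05. The fit was tested on simulated data. Between 45.5% and 51.1% of spots were well above background, none was saturated, and 3 arrays a tissue limit the precision. Members and lists were chosen with earlier results of these data known. Single genes named by rule are the polymerase subunits and paralog pairs. They also include the up to 5 largest calls in each direction in the TAFs, Mediator and general factors. Others, such as *Taf1a*, *Med7*, *Med14*, *Gtf2f1* and *Gtf3a*, were given outside that rule and were not recomputed under the alternatives. The labels give both tissues the same mouse numbers, taken as pairs. Deviations of arrays of 1 number correlated with r of 0.00656 to 0.0499 over 21382 probes, against -0.105 to 0.0429 between numbers, so the data show no pairing beyond the labels. With 1 culture per mouse and tissue, the p-values measure the spread between these cultures. Alternatives were normexp (offset 16 or 50) from intensities, background-subtracted signal with 75th percentile scaling, a filter on dim probes and the mean of a gene's probes. Others were eBayes with trend and robust variances, mouse or slide as a block, each array left out, and the methods' threshold (unadjusted p under 0.05, 1.5-fold). The values of 1 of the 28 polymerase subunits are not reported here.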

Additional observations from a re-analysis of the deposited data

How the results depend on the processing

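Against counts of 19 (esophagus higher) and 1 (stomach higher), 75th percentile scaling of background-subtracted signal gave 7 and 0. Background treatment and scaling changed together there. The 7 were 6.67% of members against 5.75% of all gene names. At an unadjusted p under 0.05 (limma), 2 were higher in the stomach. Trend and robust variances gave 11 and 1, the methods' threshold 30 and 4, and leaving out 1 array 5 to 25 and 0 to 4. With the mouse as a replicate block there were 16 and 1. The block ended 6 calls, among them those of *Polr1b*, *Med22*, *Med13*, *Med10* and *Gtf2e2*, made that of *Polr2d*, and changed no call beyond these 7 among the 55 genes recomputed singly. The other 2 genes it added were not named singly. The median difference of polymerase I subunits, 0.49, was 0.59 with 75th percentile scaling, 0.31 with the mean of all probes and 0.45 to 0.55 with 1 array left out. That of polymerase II, 0.35, was 0.65 with 75th percentile scaling, 0.25 with the mean of all probes and 0.26 to 0.54 with 1 array left out. That of polymerase III, 0.47, was 0.34 with the mean of all probes and 0.40 to 0.58 with 1 array left out. The mean of all probes turned *Med4* to -0.33 and *Polr2l* to -2.79, and ended the calls of *Taf12*, *Med21*, *Med12* and *Polr1b* too. Of the 20 called genes, 4 (*Polr3g*, *Taf13*, *Med31* and *Med12l*) passed under all 14 alternatives, and 19 kept their direction in all 14, *Med4* being the exception. The cause of these shifts was not tested. *Polr3g*, *Taf13* and *Med31* have 1 probe each, so the mean of all probes refitted the same values and is no check on their calls. *Med12l* stayed in under the filter on dim probes only through its esophagus arrays, so that fit is no support for its call. Signal over background limits *Med12l*, *Taf4b*, *Gtf2a1l*, *Med9os* and *Taf1a*, and *Tcea3* outside the 105.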
